A study of Homo sapiens with 16 samples.

Results

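Gene deserts are long stretches of chromosome between protein-coding genes. In this set of ATAC-seq peak lists, a gene desert region is a stretch that was open in at least 1 library and lay at least 500 kb from both ends of every RefSeq protein-coding gene and inside none. Joining all overlapping peaks (1 shared base sufficed) of the 16 lists on chromosomes 1 to 22 and X gave 321056 regions, and 18769 of them (5.85%) met the rule. They fell in 313 intervals, each named here by the nearest protein-coding gene on either side, so that SOX2-ATP11B is the desert between SOX2 and ATP11B. Of the other regions, 132556 lay between genes but nearer to one, and 169731 lay in or across a gene. The rule used positions only and no measured difference between samples.

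ATAC-seq marks open chromatin with the Tn5 transposase, and a peak is a stretch where the inserted tags pile up. All libraries came from brain organoids enriched for dorsal telencephalon and grown from a reporter derivative of H9 (an established line of human embryonic stem cells, labelled WT for genotype). In every group 1 SOX2 allele carried P2A-EGFP at its stop codon, and the AAVS1 site carried dTomato under the human Synapsin1 promoter. SOX2::EGFP+ cells, called progenitors here, and hSyn1::dtomato+ cells, called neurons, were sorted on days 40, 60, 90 and 120, with 2 libraries in each of the 8 groups. The sort therefore rests on SOX2 expression and on a neuronal promoter placed outside its own locus. Whether a group's 2 libraries stem from different cultures is not in the labels. The p-values therefore reflect library-to-library spread only, and this may be technical.

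Deserts hold no protein-coding sequence, but many contain enhancers, which are short open elements that can act on a promoter over a long distance. Deserts beside genes that steer development are known for holding arrays of such elements, and long non-coding RNAs and some microRNAs also start inside them. A gene named here as a neighbour is a landmark, and no test of which gene a region acts on was made.

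The non-coding transcripts that begin inside deserts give the only sequences that could be read for these regions, since no genome was used. RefSeq promoter windows (GRCh38.p14, 250 bases before to 50 after the start site) placed 654 start sites of long non-coding RNAs in deserts. The 4 windows that follow are shown because each lay over a desert region whose openness is described in the next paragraphs. They read 5′ to 3′ on the transcript's strand, and capitals mark the 50 bases from the start site on. LOC105373664 lies at chr2:145631798-145632097 on the minus strand, LOC107984478 at chr12:87388175-87388474 on the minus strand, RMST at chr12:97464441-97464740 on the plus strand and MIR99AHG at chr21:16420045-16420344 on the plus strand.
LOC105373664: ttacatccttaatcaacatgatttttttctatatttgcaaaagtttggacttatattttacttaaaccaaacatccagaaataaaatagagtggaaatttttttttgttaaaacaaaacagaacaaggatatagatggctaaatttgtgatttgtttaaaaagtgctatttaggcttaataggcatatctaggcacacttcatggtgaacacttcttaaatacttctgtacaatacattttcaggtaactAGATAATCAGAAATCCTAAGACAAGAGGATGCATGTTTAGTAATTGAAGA
LOC107984478: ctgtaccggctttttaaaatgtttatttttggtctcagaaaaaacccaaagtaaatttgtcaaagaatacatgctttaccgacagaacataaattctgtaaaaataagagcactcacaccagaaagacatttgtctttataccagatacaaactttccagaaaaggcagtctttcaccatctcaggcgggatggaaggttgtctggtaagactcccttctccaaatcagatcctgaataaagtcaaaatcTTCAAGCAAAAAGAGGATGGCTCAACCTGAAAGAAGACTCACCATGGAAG
RMST: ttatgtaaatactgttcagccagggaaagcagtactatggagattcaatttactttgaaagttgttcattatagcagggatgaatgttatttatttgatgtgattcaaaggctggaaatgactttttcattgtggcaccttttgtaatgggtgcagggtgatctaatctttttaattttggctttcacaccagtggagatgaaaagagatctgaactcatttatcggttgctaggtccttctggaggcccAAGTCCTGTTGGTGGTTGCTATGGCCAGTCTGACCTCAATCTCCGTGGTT
MIR99AHG: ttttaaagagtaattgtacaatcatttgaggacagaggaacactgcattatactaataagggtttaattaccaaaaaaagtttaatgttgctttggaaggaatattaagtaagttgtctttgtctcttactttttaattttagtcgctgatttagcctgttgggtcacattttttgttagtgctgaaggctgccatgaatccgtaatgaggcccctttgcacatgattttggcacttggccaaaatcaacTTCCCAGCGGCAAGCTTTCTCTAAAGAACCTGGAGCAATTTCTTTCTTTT

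Of these 4, the LOC105373664 window in the ZEB2-ACVR2A desert lay under a region with a peak in 7 of 8 progenitor and 0 of 8 neuron libraries (Fisher's exact test, adjusted p = 0.0323). The LOC107984478 window between MGAT4C and C12orf50 lay under a region open in 0 progenitor and 6 neuron libraries (Fisher's exact test, adjusted p = 0.08). Only the first of these passed the threshold of 0.05. The start sites of RMST, a long non-coding RNA known to work with SOX2 in neuron formation, and of MIR99AHG, the host transcript of let-7c, miR-99a and miR-125b-2, lay under regions open in all 16 libraries.

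The share of promoter windows over an open region was lower in deserts than elsewhere in these lists. A region overlapped 131 of the 654 windows (20%), against 46% of 12176 windows of non-coding genes outside deserts, 75.3% of 22131 windows of protein-coding genes (several for some genes) and 64.1% of all 34961 windows that could be placed. The median GC content was 39.3% in deserts and 58.7% over all windows. Both strands were searched for 5 motifs. TATAAA, the letters of the TATA box, stood in 25.2% of the desert windows over a region and in 11.5% of all windows, TAATTA, the core of many homeodomain sites, in 13% and 4.85%, and ACAAAG, part of SOX family sites, in 23.7% and 16.1%. CANNTG, the E-box, stood in 76.3% and 68.7%, and TGACTCA, an AP-1 site, in 3.82% and 4.92%. Most of all windows belong to protein-coding genes. Windows of non-coding genes outside deserts held TATAAA in 14.1%, TAATTA in 7.02%, ACAAAG in 20.1%, CANNTG in 74.9% and TGACTCA in 6.52%. Desert windows without a region held TATAAA in 35% and TAATTA in 14%, and their median GC content was 39%. No share was tested, and a match is no binding site. Of the windows printed above, MIR99AHG held 3 matches of CANNTG, 1 of TAATTA and 1 of ACAAAG, LOC107984478 held 1 of CANNTG and 1 of TATAAA, and LOC105373664 and RMST held none of the 5 motifs.

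MicroRNAs silence messages that match their seed, bases 2 to 8. RefSeq placed 44 microRNA genes in deserts, and 38 of them had no peak over the hairpin or mature sequence in any library. The mature sequences that follow, chosen after the values of the regions near them were seen, belong to the genes of the let-7c and miR-221 groups, each with a member beside a region that differed between the populations, and to MIR4495, whose hairpin lay in a region. The seed is in capitals.
hsa-let-7c-5p: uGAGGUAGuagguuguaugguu
hsa-miR-99a-5p: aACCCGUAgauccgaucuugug
hsa-miR-125b-5p: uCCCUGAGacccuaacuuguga
hsa-miR-221-3p: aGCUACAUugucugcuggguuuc
hsa-miR-222-3p: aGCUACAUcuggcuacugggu
hsa-miR-4495: aAUGUAAAcaggcuuuuugcu

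Among these microRNAs miR-221-3p and miR-222-3p share their seed, and the others each have their own. The let-7c hairpin (mature arm at chr21:16539838-16539859) had no peak, and the nearest desert region, 1406 bases away, was open in 7 of 8 progenitor and 0 of 8 neuron libraries. The MIR221 hairpin (mature arm at chrX:45746180-45746202) had no peak either, and the region 1712 bases from it was also open in 7 progenitor and 0 neuron libraries. Both regions passed Fisher's exact test with an adjusted p of 0.0323. In progenitors the single library that lacked the region was 1 of the 2 at day 40 near let-7c and 1 of the 2 at day 120 near MIR221. The region nearest to MIR99A was open in 4 progenitor and 2 neuron libraries, and that nearest to MIR222 in 0 and 2. The region nearest to MIR125B2, 1182 bases away, was open in all 16 libraries. The MIR4495 hairpin itself lay in a region open in 3 progenitor and 8 neuron libraries (not past the threshold). Of the genes not printed, MIR663A, in the desert between ZNF337 and LOC124904970, had a peak over its mature sequence in all 16.

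Peaks covered between 36.9 and 104 Mb per library, least in progenitor day 120 replicate 2 and most in neuron day 40 replicate 1. How many reads stand behind each list is unknown. That progenitor library also stood apart in 2 other respects. In it 20.2% of desert peaks lay in intervals that hold a centromere, against 2.34% to 9.13% in the other 15, and its overlap with its own replicate was the lowest of the 8 groups. The bases covered in SOX2 and the 20 kb on either side averaged 13.3 kb (7.1 to 18) in progenitors against 5.59 kb (3.81 to 8.94) in neurons, and these ranges overlapped. Covered bases summed over 8 progenitor markers came to 69.6 kb in progenitors and 45.8 kb in neurons, and over 8 neuron markers to 87.1 and 99.1 kb. Most of the latter difference came from RBFOX3, with 27.7 kb in progenitors and 39.4 kb in neurons. DCX, STMN2, TUBB3 and TBR1 also had the higher mean in neurons. SYN1 (3.3 and 3.01 kb), MAP2 (26.1 and 24.9 kb) and NEUROD6 (2.37 and 2.2 kb) had it in progenitors. The populations overlapped at every one of these markers. No peak lay at an end of the pluripotency genes POU5F1 and NANOG, of PECAM1 and AIF1, or of the progenitor marker SLC1A3 in any library. Of mesenchyme genes COL1A1 had one in all 16 libraries, COL1A2 in 7 progenitor and 1 neuron libraries and PDGFRB in 8 and 6, and the vessel gene CDH5 had one in 1 and 1. Of microglial genes CSF1R had one in 8 progenitor and 0 neuron libraries, CX3CR1 in 5 and 7 and P2RY12 in 1 and 0. Whether other cell types in the sorts take part in the differences given here was not tested.

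Desert regions were sparser, narrower and less widely shared than other regions. They lay at 78.1 regions per Mb of desert, against 98.5 per Mb of other sequence between genes and 135 per Mb of gene bodies. This density leaves out the 21 intervals that hold a centromere, by approximate positions, with 919 of the desert regions (4.9%), and the 2 intervals with no gene on one side, with 55. The median width was 560 bases in deserts, 622 bases between genes nearer than 500 kb and 693 bases in genes. The median desert region lay 758.7 kb from the nearest gene and the farthest 4814 kb, and 5089 were at least 1 Mb away. Just inside the rule, 526 regions lay at 500 to 510 kb, and just outside it 490 lay at 490 to 500 kb.

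Most desert regions were open in few libraries. A single library held 6631 of them, and 377 were open in all 16, 36 of these in centromere intervals. At least 9 libraries shared 14% of desert regions, 21.2% of other regions between genes and 27.2% of those in genes. The plot of libraries per region shows this at its right end, where 2.01% of desert regions and 10.6% of genic regions were in all 16. Start sites of non-coding RNAs lay under 17 of these 377 (4.51%) and under 119 of all desert regions (0.634%).

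**Figure D1:**
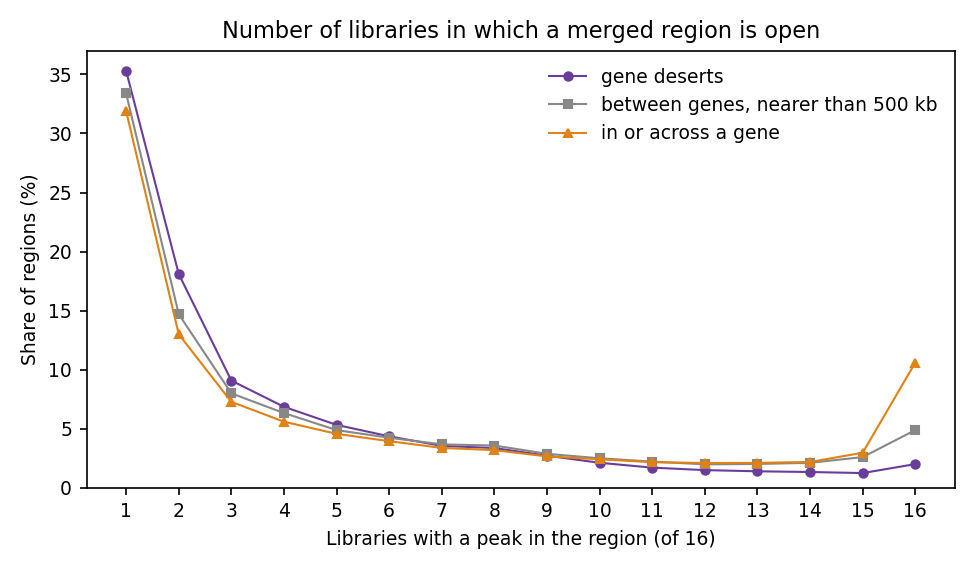
Share of merged regions (vertical axis, percent) by the number of libraries with a peak in them (horizontal axis, 1 to 16), for gene deserts, other sequence between genes and genes. At 16 libraries the desert line stands at 2.01%, below 4.89% and 10.6%.

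The desert regions open in all libraries included some of the most enriched peaks of each list. The strongest, by the mean percentile of the authors' deposited fold enrichment within each list, was chr2:193170333-193171748 in the desert between TMEFF2 and the zinc transporter gene SLC39A10, with a mean percentile of 98.4 and a median fold of 8.63 (5.3 to 11.4 over the libraries). A pair of the next regions flanked SOX11, a transcription factor of young neurons, from either side. One, chr2:6325338-6326291, lay 623.95 kb from SOX11 toward CMPK2, and the other, chr2:4745047-4746101, lay 946.28 kb from it on the other side. Their median folds were 7.13 and 7.42. The remaining ones by the same rule were chr3:117486799-117487849 between the adhesion genes LSAMP and IGSF11, with a median fold of 6.84, and chr7:68510894-68511910 between SPDYE21 and AUTS2, a gene of neurodevelopment, with 7.33. The LSAMP-IGSF11 desert held 13 regions open in all libraries among 206, including the start of LINC03051.

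The 8 deserts with most regions, outside centromere intervals, held 216 to 299 each. They were LOC105372073-PIK3C3 with 299, PCDH7-ARAP2 with 268, AGA-TENM3 with 246, NCAM2-MRPL39 with 245, TENM4-FAM181B with 235, MAT2B-TENM2 with 223, and IGFBP7-LOC124900173 and TMEFF2-SLC39A10 with 216 each. PCDH7, NCAM2 and the teneurins TENM2, TENM3 and TENM4 are surface proteins of neurons. Over all deserts the median interval had 43 regions, and the density had a median of 80.2 per Mb with quartiles of 66.7 and 98.6.

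The first comparison asked whether progenitors and neurons put a different share of their open chromatin into deserts, and no difference was found. In progenitors 3.49% (lowest), 4.2% (median) and 5.01% (highest) of peaks lay in deserts, and in neurons 3.75%, 4.67% and 5.5%. The ranges overlap over most of their length. The means were 4.22% ± 0.458 and 4.59% ± 0.56 (SD, n = 8 each), a difference of -0.378 points (two-sided exact permutation p = 0.16, adjusted p = 0.371 over 4 such tests). The share of covered bases was 3.53% ± 0.465 and 3.77% ± 0.492 (exact permutation p = 0.32, adjusted p = 0.371). When labels were exchanged only within a stage, the share of peaks gave an unadjusted exact permutation p of 0.0309. With peaks of −log10 q of at least 2 the unadjusted p was 0.0357. Both are to be read beside the unadjusted 0.16, since neither was adjusted over the 4 tests. The unadjusted p thus depends on the setting.

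Shares were then compared between stages. Covered bases in deserts made up 3.38%, 3.89%, 2.90% and 3.03% of the lists in early progenitors (days 40 and 60) and 3.42%, 3.55%, 4.35% and 3.70% in late ones (days 90 and 120). The late mean was higher by 0.454 points, with overlapping groups (exact permutation p = 0.2, adjusted p = 0.371). Neurons had 4.59%, 3.46%, 3.10% and 3.21% early and 4.05%, 3.81%, 3.96% and 3.98% late, a mean difference of 0.36 points (exact permutation p = 0.371, the same after adjustment). With lists of equal length this difference was 0.9415 points, with an unadjusted exact permutation p of 0.0286. With 4 libraries against 4 the smallest possible p is 0.0286. Neuron day 40 replicate 1 was the single early neuron library above all late ones. Without it the difference was 0.694 points with that smallest exact p of 0.0286, also unadjusted. In the plot of shares by age, both populations were lowest at day 60.

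**Figure D2:**
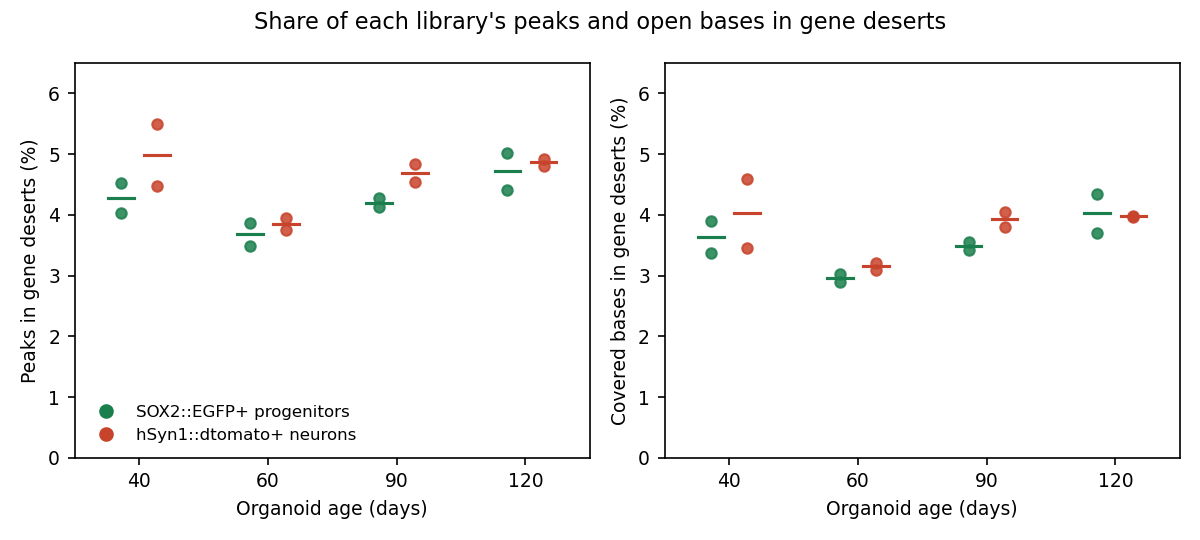
Share of peaks (left) and of covered bases (right) in gene deserts, in percent on axes that start at 0, against organoid age in days. Points are libraries and short lines are means of 2; the populations overlap, and the highest point is a neuron library of day 40 at 5.5% of peaks.

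Libraries of 1 population shared more of their open desert bases than mixed pairs did. As a measure the Jaccard index was used, the bases covered in both of 2 libraries over the bases covered in either, over desert regions only. It averaged 0.354 over the 28 pairs of progenitor libraries (0.194 to 0.609), 0.297 over the 28 pairs of neuron libraries (0.17 to 0.542) and 0.18 over the 64 mixed pairs (0.105 to 0.304). Pairs within a population exceeded mixed pairs by 0.145 (one-sided exact permutation p = 0.000155, the smallest that 8 against 8 libraries allow). Over the whole lists the same means were 0.459, 0.417 and 0.326. Replicates of 1 group shared 0.471 of their desert bases on average, from 0.267 in progenitors at day 120 to 0.609 in progenitors at day 90. The day 120 value includes the library of 36.9 Mb. Leaving out each library in turn kept the difference between 0.134 and 0.163.

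Single desert regions were called at shares near those of regions anywhere, so the counts say nothing particular of deserts. Of 18769 desert regions, 11526 had a peak in 2 to 14 libraries and entered a two-sided Fisher's exact test of the 8 libraries of each population. P-values were adjusted by Benjamini-Hochberg over all 182575 regions tested. More often open in progenitors were 344 (2.98%), where 3.06% of all tested regions were, and more often open in neurons were 159 (1.38%), where 1.27% were. A peak in 8 of 8 progenitor and 0 of 8 neuron libraries was seen for 122 (1.06%, against 1.02% of all), and the reverse for 31 (0.269%, against 0.296%). Without adjustment 1188 (10.3%) and 974 (8.45%) desert regions had a p under 0.05. These counts were not made over all regions, so they cannot set deserts apart. The counts move with single libraries: without progenitor day 120 replicate 2 the first was 518, and the second was 241 without progenitor day 90 replicate 2 and 298 without neuron day 40 replicate 2. With libraries compared only within a stage no desert region could pass. There even a peak in 8 of 8 libraries of one population and 0 of 8 of the other gave an adjusted p of 0.107.

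The called regions were spread thinly. At least 1 region open more often in progenitors lay in 149 deserts, and 1 open more often in neurons in 100. Both kinds lay in 71 deserts, and 135 had neither. Only 31 deserts held 4 or more of the progenitor kind and 3 held 4 or more of the neuron kind. The called regions had median widths of 1065 and 986 bases against 733 for the other tested ones, and stood at median distances of 719.8 and 746.6 kb from the nearest gene against 753.8 kb. The other tested ones include regions open in only 2 libraries, which cannot be called. The widths were thus not compared at like numbers of libraries.

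The regions that follow had a peak in all 8 libraries of one population and in none of the other, which gives a Fisher p of 0.000155 and an adjusted p of 0.0118. They are the 6 per direction with the highest mean percentile of the authors' fold enrichment in the libraries that hold them. In progenitors the strongest was chr4:66736210-66737079, between the ephrin receptor gene EPHA5 and CENPC, 731.68 kb from the nearer of them, with a median deposited fold of 6.79 (6.26 to 9.46). Next came chr3:164207704-164209603 in OTOL1-SI (median fold 6.97) and chr2:146540082-146540989 in ZEB2-ACVR2A, 1303.5 kb from ACVR2A, an activin receptor gene (6.55). The others were chr14:48990587-48991787 in MDGA2-RPS29 (6.57), chr11:127709688-127710501 between the adhesion gene KIRREL3 and the transcription factor gene ETS1 (6.35) and chr16:62664989-62666011 between the cadherin genes CDH8 and CDH11 (5.75).

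In neurons the strongest of this kind was chr14:87430109-87430812 in FLRT2-GALC, 502.2 kb from GALC, with a median fold of 7.13 (2.82 to 8.49). It was followed by chr13:82248250-82249680, 1627.5 kb from SLITRK1, a gene of neurite growth (6.31), and chr2:103419343-103420368 in TMEM182-POU3F3, 1432.9 kb from POU3F3, a transcription factor gene of cortical neurons (6.15). The others were chrX:94216175-94217065 in FAM133A-DIAPH2 (5.57), chr11:42596312-42597386 in LRRC4C-API5, where LRRC4C encodes a synaptic netrin-G ligand (5.43), and chr21:23475395-23476883 in NCAM2-MRPL39 (5.06). The mean percentile was 80 to 83.3 for the 6 neuron regions and 91.6 to 97.8 for the 6 progenitor regions, a difference that was not tested.

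The deserts that follow held many called regions and were also large, so their counts are set against the 2.98% and 1.38% of tested desert regions called in progenitors and neurons. SPRY2-SLITRK1, between the FGF signalling inhibitor SPRY2 and SLITRK1, held 6 regions open more often in neurons (4.48% of its 134 tested regions) and 5 open more often in progenitors (3.73%). CDH2-DSC3, beside the N-cadherin gene CDH2, held 4 of the neuron kind (3.45% of 116) and 0 of the other. PCDH7-ARAP2 and LSAMP-IGSF11 held 7 of the progenitor kind each (4.4% of 159 and 5.19% of 135) and 2 of the neuron kind each (1.26% and 1.48%, near the share over all deserts). Calls in both directions lay in 71 deserts. Of the 56 deserts higher in progenitors as a whole, 6 held a region called in neurons, where 100 of all 313 deserts did. Of the 78 higher in neurons, 33 held a region called in progenitors, where 149 of all 313 did. The total of a desert sums the bases of these same regions, so the 2 kinds of call are not independent.

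Openness was then summed over each whole desert. The covered bases of all desert regions of an interval were scaled to the mean total of covered bases per library and compared with limma, on the scale of log2(bases + 500), where low values change less than on a plain fold scale. In bulk cells, fewer cells with a region open and less opening per cell cannot be told apart. Of 299 deserts tested, 56 were higher in progenitors (18.7%) and 78 in neurons (26.1%). Over all 8793 intervals between genes tested, the shares were 21% and 15%. The median difference, progenitors minus neurons, was -0.079 in deserts and 0.033 over all intervals. Deserts carry more bases, a median of 6.99 kb per library against 1.15 kb in the other intervals, so the 2 shares are not read at equal precision. With bases scaled to the desert total in place of the whole list, 66 deserts were higher in progenitors and 67 in neurons, and without scaling 34 and 32. Without adjustment 162 deserts had a p under 0.05, a count that was not made over all intervals.

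**Figure D3:**
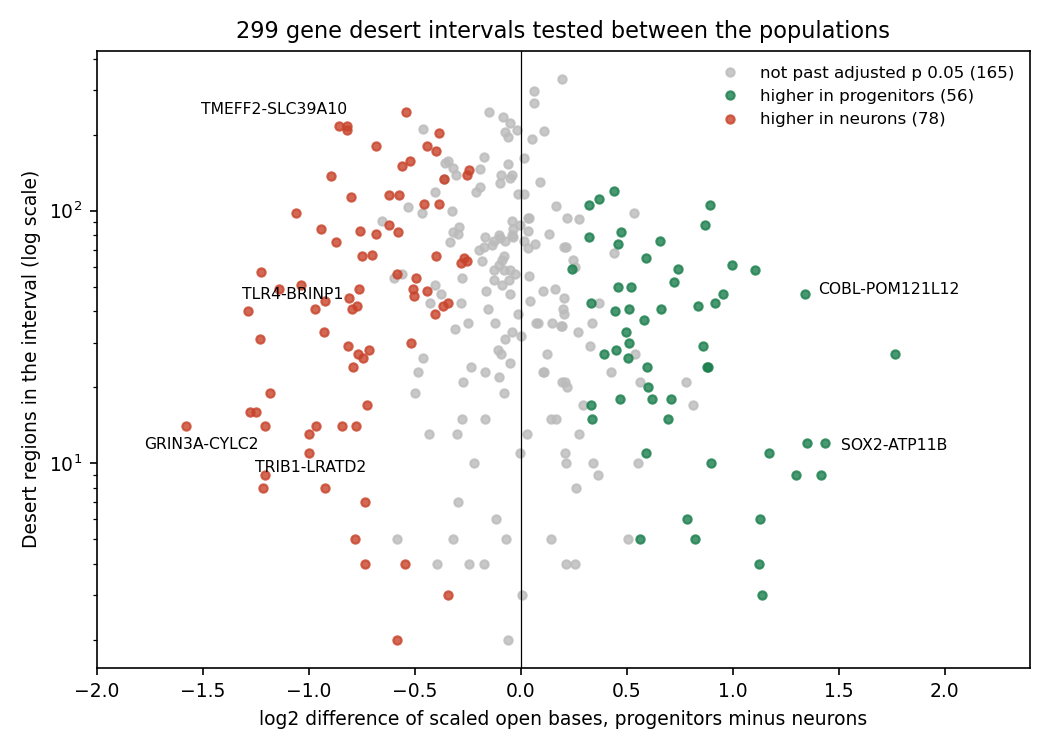
Each of the 299 deserts by its log2 difference of scaled open bases (horizontal axis, progenitors minus neurons) and its number of desert regions (vertical axis, log scale). Green points (56) and red points (78) passed adjusted p 0.05; labelled deserts include SOX2-ATP11B at 1.35 with 12 regions and GRIN3A-CYLC2 at -1.58 with 14.

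The populations differed at each age, by a count made after the data were seen. Separate contrasts at days 40, 60, 90 and 120 passed for 38 (12.7%), 69 (23.1%), 24 (8.03%) and 57 (19.1%) of the 299 deserts. Over all intervals 11%, 15.5%, 6.63% and 18.3% passed. At day 40 most of the called deserts, 27 of 38, were higher in neurons, and at day 60 most, 40 of 69, were higher in progenitors. The directions were not counted over all intervals. The median log2 difference, progenitors minus neurons, was -0.138 in deserts and 0.012 over all intervals at day 40. At day 60 it was -0.066 and 0.058, so the median desert leaned to neurons at both ages. Groups of 2 libraries set these counts, and the differences between ages were not tested.

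Deserts in which the populations did not overlap at all numbered 11 of 299 (3.68%, against 4.42% of all intervals). Progenitors were higher in 6 of them, among them COBL-POM121L12, JAG1-BTBD3, SOX2-ATP11B, HAS2-ZHX2 and BMP2-HAO1. Neurons were higher in 5, NDST4-TRAM1L1, LRRC4C-API5, CTNND2-DNAH5, YTHDF3-LOC124900252 and DMRTA1-ELAVL2. JAG1 is a Notch ligand and BMP2 a morphogen.

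SOX2-ATP11B lies beside the gene used for the sort. It covered 4.595 kb (lowest), 6.48 kb (median) and 7.31 kb (highest) in progenitors and 1.59, 2.02 and 3.45 kb in neurons. Every progenitor library was above every neuron library. The log2 difference was 1.35 ± 0.15 (SE; limma, adjusted p = 3.01e-05), and it ranged from 1.25 to 1.43 over the 4 ages. Its 12 regions lay 500 to 577.9 kb from SOX2. The region at chr3:182227923-182229749, 513.5 kb from SOX2, was open in 8 progenitor and 1 neuron libraries, and the one at chr3:182292297-182293497 in 7 and 0 (Fisher's exact test, adjusted p = 0.0323 each). Another, chr3:182241635-182242684, was open in all 16. Since cells were sorted by EGFP from SOX2, a difference beside SOX2 and the choice of the groups cannot be told apart.

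By the rule that named deserts (the largest differences each way with the same sign at all 4 ages), 4 more were higher in progenitors. COBL-POM121L12, beside COBL, an actin nucleator, covered 9.41, 11.4 and 16.7 kb in progenitors and 2.18, 3.55 and 9.40 kb in neurons (1.34 ± 0.13, adjusted p = 1.18e-05). The groups met without overlap, since neuron day 40 replicate 2 had 9.398 kb and progenitor day 90 replicate 1 had 9.407 kb. RGMA-MCTP2, beside the axon guidance gene RGMA, covered 2.03, 3.45 and 5.02 kb against 0, 0.626 and 4.48 kb, which overlap (1.44 ± 0.25, adjusted p = 0.000728). HAS2-ZHX2, beside the hyaluronan synthase gene HAS2, covered 2.41, 2.77 and 3.22 kb against 0, 0.783 and 1.94 kb (1.41 ± 0.17, adjusted p = 5.04e-05). ALG10-ALG10B holds the centromere of its chromosome and had 0, 0.857 and 3.86 kb against 0, 0 and 0.698 kb (1.30 ± 0.25, adjusted p = 0.00147). Its highest progenitor library was day 120 replicate 2, the one with most peaks near centromeres, and the call held without that library.

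Among deserts higher in neurons, GRIN3A-CYLC2 led. GRIN3A encodes an NMDA receptor subunit of developing synapses. It covered 0, 0.236 and 1.41 kb in progenitors and 0.828, 2.07 and 2.57 kb in neurons (-1.58 ± 0.21, adjusted p = 0.000119). A single progenitor library, day 40 replicate 2, reached the neuron range, above neuron day 40 replicate 2 and day 120 replicate 2. TLR4-BRINP1, beside BRINP1, which restrains the cell cycle in neural cells, had 0.818, 1.59 and 5.83 kb against 2.346, 7.002 and 9.18 kb (-1.29 ± 0.17, adjusted p = 0.000124). CDH18-CDH12, between a pair of type II cadherin genes, had 0.741, 0.88 and 2.51 kb against 1.73, 3.40 and 5.03 kb (-1.28 ± 0.13, adjusted p = 2.40e-05). Its region chr5:21200575-21201534 was open in 0 progenitor and 8 neuron libraries, and 3 more were open in both neuron libraries of days 60, 90 and 120 and in no other library.

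**Figure D4:**
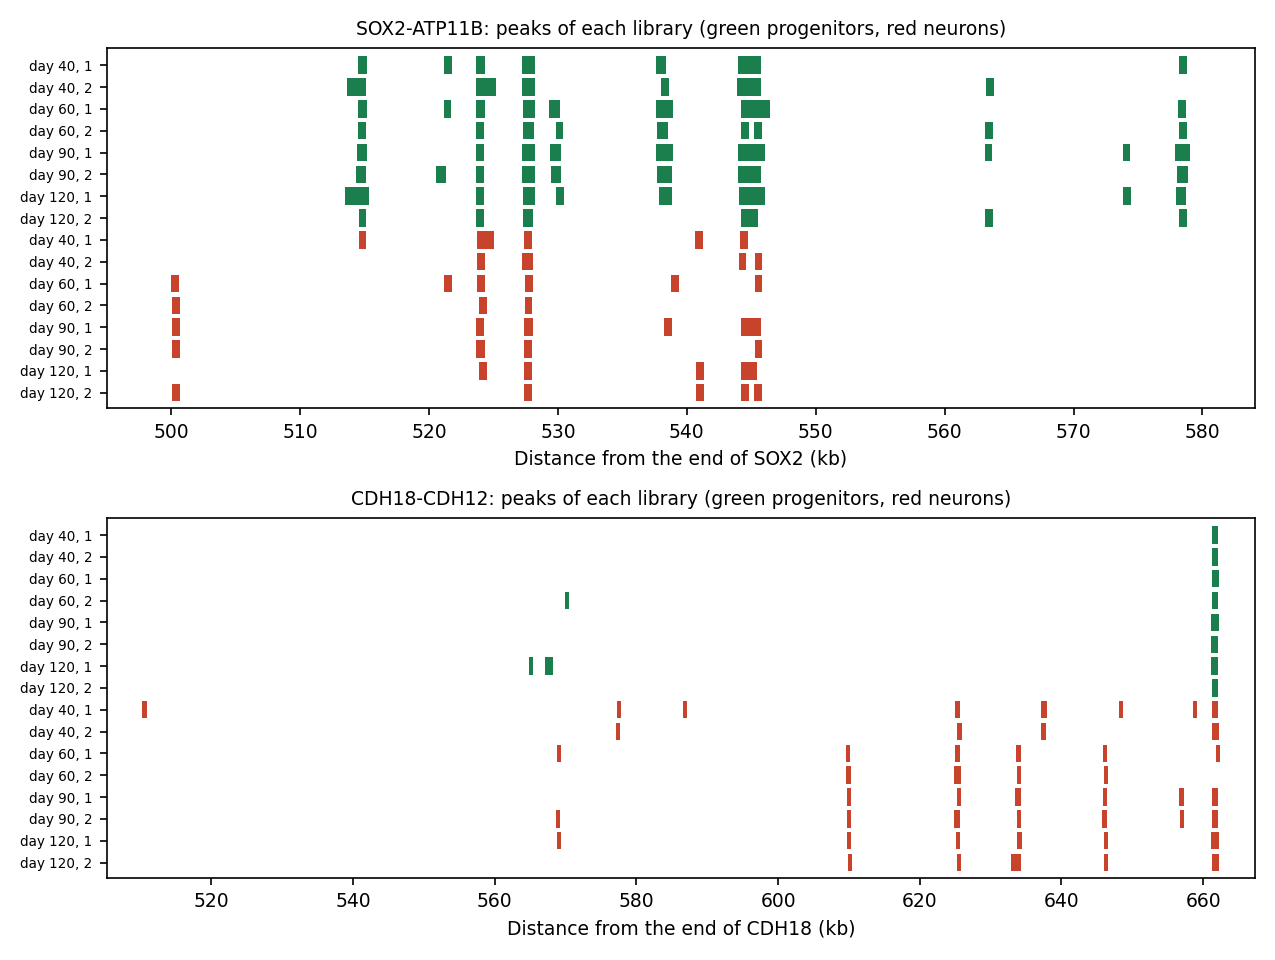
Peaks of each library (rows, labelled by day and replicate; green progenitors, red neurons) by distance in kb from the end of SOX2 (top) and CDH18 (bottom). In the upper map the column at 513.5 kb runs through all 8 green rows and 1 red row; in the lower map the column at 624.9 kb is in all 8 red rows and no green row.

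Also named by that rule were LMO3-RERGL, PTPRU-MATN1 and KLF6-AKR1E2. LMO3, a LIM cofactor gene of neurons, flanks a desert with 0, 2.82 and 4.57 kb in progenitors and 3.79, 6.74 and 8.67 kb in neurons (-1.23 ± 0.30, adjusted p = 0.00644). PTPRU-MATN1, beside a receptor phosphatase gene, had 0.743, 3.23 and 5.40 kb against 3.59, 7.74 and 17.1 kb (-1.23 ± 0.20, adjusted p = 0.00042). KLF6-AKR1E2 was nearly closed in progenitors, with 0, 0.2 and 0.871 kb against 0.428, 1.11 and 1.83 kb (-1.22 ± 0.20, adjusted p = 0.000415). All 3 overlap between the populations.

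**Figure D5:**
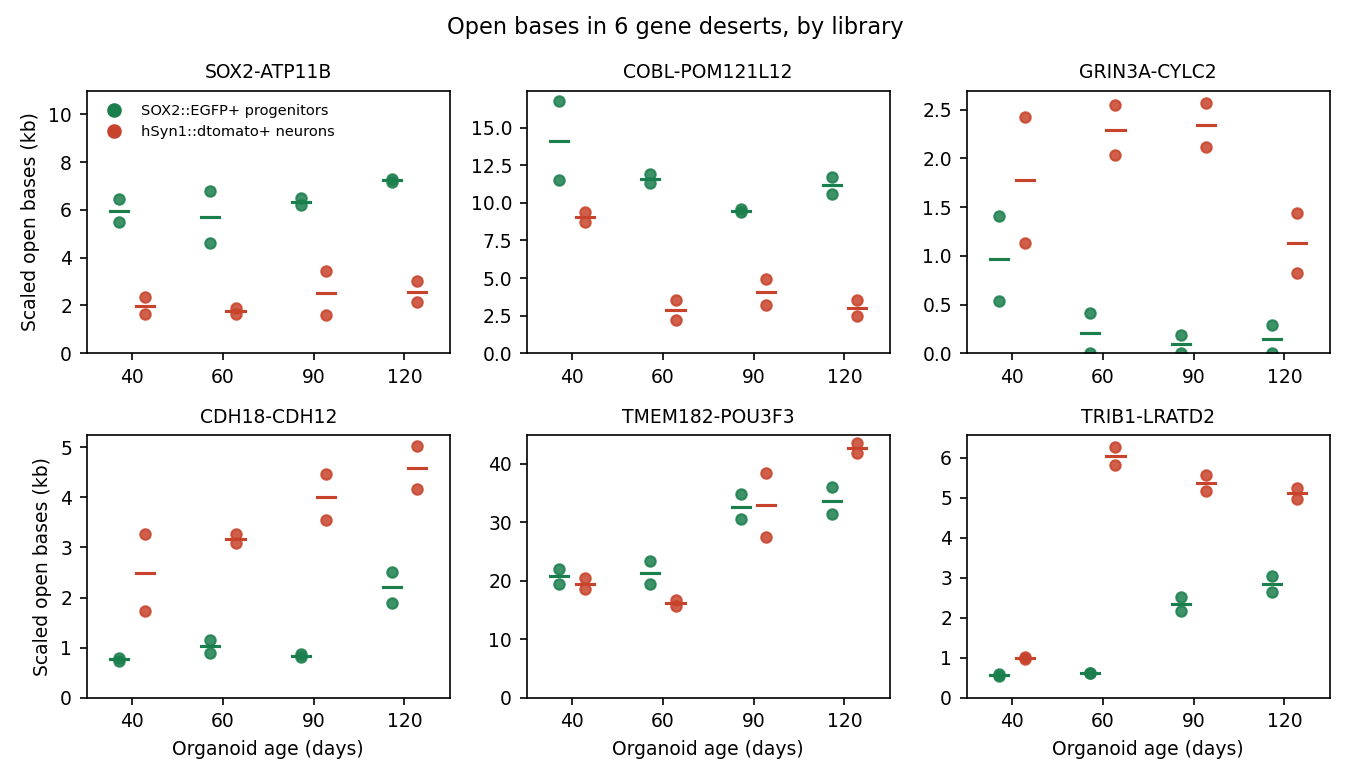
Scaled open bases (kb, axes from 0) in 6 deserts against organoid age in days; points are libraries and short lines means of 2. SOX2-ATP11B and COBL-POM121L12 lie higher in progenitors at every age, GRIN3A-CYLC2 and CDH18-CDH12 have the higher mean in neurons, and TMEM182-POU3F3 and TRIB1-LRATD2 change with age.

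Deserts were also grouped by lists of their flanking genes. Of 50 radial glia and progenitor genes, 12 flank a desert, and these 12 deserts had a median log2 difference of 0.408, against -0.079 over all deserts. In 6 (50%) the difference passed toward progenitors and in 0 toward neurons, against 18.7% and 26.1% of all 299 deserts and 21% and 15% of all intervals. Single regions did not lean this way. Of the 341 tested regions of these deserts, 7 (2.05%) were called in progenitors and 3 (0.88%) in neurons, below the 2.98% and 1.38% of all desert regions. The 6 were SOX2-ATP11B, BMP2-HAO1 (1.13 ± 0.17, adjusted p = 0.000279), SH3BGRL-POU3F4 (0.92 ± 0.23, adjusted p = 0.00774), PSAT1-TLE4 (0.51 ± 0.12, adjusted p = 0.00556), MMS22L-POU3F2 (0.46 ± 0.13, adjusted p = 0.0129) and RNF144B-ID4 (0.39 ± 0.08, adjusted p = 0.003). POU3F2 and POU3F4 are POU factors of neural development, TLE4 a corepressor and ID4 an inhibitor of proneural factors. KCNJ2-SOX9, the desert before SOX9, a factor of glia and stem cells, stood at 0.04 ± 0.08 (adjusted p = 0.781), with 94 regions.

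The forebrain and cortical patterning genes flank 9 deserts, with a median of 0.369. Higher in progenitors were 4 of them (44.4%, against 18.7% of all deserts), among them IRX1-ADAMTS16 (0.83 ± 0.12, adjusted p = 0.00015) and ARRDC3-NR2F1 (0.37 ± 0.09, adjusted p = 0.00863). NR2F1 patterns the cortex. Higher in neurons were 3 (33.3%, against 26.1%), among them MCTP2-NR2F2 (-0.28 ± 0.09, adjusted p = 0.0223) and DMRTA1-ELAVL2 (-1.19 ± 0.15, adjusted p = 9.74e-05), where ELAVL2 is a neuronal RNA-binding protein gene. Of their 255 tested regions, 21 (8.24%) were called in progenitors and 4 (1.57%) in neurons, against 2.98% and 1.38% of all desert regions. ARRDC3-NR2F1 held 9 regions open in all libraries, one of them at the start of LINC02058.

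The neuronal transcription factor genes flank 16 deserts, whose median was -0.125. The shares that passed were near those of all deserts, 18.8% against 18.7% toward progenitors and 25% against 26.1% toward neurons. Toward progenitors 3 passed, LMO4-PKN2 (0.86 ± 0.19, adjusted p = 0.00387), ISL1-PELO (0.51 ± 0.11, adjusted p = 0.00314) and SOX11-CMPK2 (0.33 ± 0.12, adjusted p = 0.0499). Toward neurons 4 passed, among them LMO3-RERGL, HNF4G-ZFHX4 (-0.73 ± 0.16, adjusted p = 0.00392) and MEF2C-CETN3 (-0.44 ± 0.11, adjusted p = 0.00745). The desert before BCL11B, a factor of deep-layer neurons, held 5 regions called in progenitors (5.43% of its 92 tested regions) and 0 in neurons. Over all deserts 2.98% and 1.38% of tested regions were called. The summed difference of the BCL11B desert was -0.19 ± 0.10 (adjusted p = 0.144). ZEB2-ACVR2A, with 209 regions, stood at -0.02 ± 0.09 (adjusted p = 0.883).

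Adhesion and axon guidance genes flank the most deserts, 67 with 6671 regions. Of the 66 tested, 8 were higher in progenitors (12.1%, against 18.7% of all deserts) and 19 in neurons (28.8%, near the 26.1% of all deserts), with a median of -0.140. Besides CDH18-CDH12, the largest toward neurons were CTNND2-DNAH5 (-1.14 ± 0.16, adjusted p = 0.000174), SPRY2-SLITRK1 (-0.82 ± 0.13, adjusted p = 0.00033) and SQOR-SEMA6D (-0.81 ± 0.09, adjusted p = 2.43e-05). CTNND2 encodes delta-catenin and SEMA6D a semaphorin. Those toward progenitors included PCDH9-KLHL1 (0.89 ± 0.19, adjusted p = 0.00278) and CDH9-LOC124901178 (0.74 ± 0.17, adjusted p = 0.00485). Body patterning genes outside the forebrain flank 5 deserts, 0 higher in progenitors and 2 in neurons (40%, against 26.1%), GATA3-CELF2 (-0.46 ± 0.10, adjusted p = 0.00437) and HNF4G-ZFHX4, which also counts under ZFHX4 above. Some deserts are flanked by genes of 2 lists, and no list was tested against other deserts. The lists were chosen with results of these data known.

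The next comparison set late against early libraries within a population. In progenitors 20 deserts were higher at days 90 and 120 than at days 40 and 60 (6.69%, against 3.7% of all intervals) and 4 were lower (1.34%, against 3.66%). In neurons 29 were higher (9.7%, against 5.4%) and 12 lower (4.01%, against 5.61%). These splits depend on the scaling: scaled to each library's desert bases, 10 were higher and 11 lower in progenitors and 17 and 21 in neurons, and without scaling 1 and 0, and 3 and 7. The median of all intervals moved from -0.050 to -0.180 in progenitors and from -0.054 to -0.156 in neurons with desert scaling, and to -0.221 in neurons without scaling. Without adjustment 80 and 105 deserts had a p under 0.05, counts that were not made over all intervals.

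The counts with age also rest on single libraries. The 24 deserts of progenitors became 10 without progenitor day 40 replicate 1, 9 without day 60 replicate 2, 7 without day 90 replicate 1, 12 without day 90 replicate 2, 40 without day 120 replicate 1 and 38 without day 120 replicate 2. The 41 deserts of neurons became 22 without neuron day 40 replicate 2, 24 without day 60 replicate 2, 18 without day 90 replicate 1, 21 and 23 without day 120 replicates 1 and 2, and 63 without either progenitor library of day 120.

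TRIB1-LRATD2, beside the pseudokinase gene TRIB1, changed with age in both populations. Progenitors covered 0.533, 0.597, 0.615 and 0.623 kb in the 4 early libraries and 2.53, 2.18, 2.66 and 3.05 kb in the late ones, with no overlap (1.501 ± 0.14, adjusted p = 0.000176). Neurons covered 0.978 and 1.01 kb at day 40 and between 4.98 and 6.28 kb at every later age (late minus early 0.88 ± 0.14, adjusted p = 0.00278). The step thus lay between days 40 and 60 in neurons and between days 60 and 90 in progenitors. Of its 14 regions, chr8:125971767-125972632 was open in all 16 libraries, chr8:126015444-126016096 in 0 progenitor and 7 neuron libraries (Fisher's exact test, adjusted p = 0.0323), and chr8:126022676-126023587 in the 6 neuron libraries from day 60 on only.

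Deserts higher late in neurons included CT83-KLHL13 and MAGEB5-PPP4R3C, both on chromosome X. CT83-KLHL13 covered 2.67, 1.91, 0.493 and 0 kb early and 6.36, 1.87, 8.38 and 9.41 kb late, where day 90 replicate 2 stayed within the early range (2.14 ± 0.31, adjusted p = 0.0018). MAGEB5-PPP4R3C covered 0.416, 0, 0 and 0 kb early and 1.22, 0.69, 2.06 and 0.917 kb late (1.505 ± 0.31, adjusted p = 0.00917). TMEM182-POU3F3, from the neuronal list, was higher late in both populations. It covered 18.7, 20.4, 16.8 and 15.7 kb early and 38.5, 27.5, 41.9 and 43.6 kb late in neurons (1.05 ± 0.12, adjusted p = 0.000426), and 19.4, 22.1, 23.4 and 19.4 kb early and 34.9, 30.5, 36.0 and 31.5 kb late in progenitors (0.65 ± 0.12, adjusted p = 0.00715). Early and late libraries did not overlap in either.

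Deserts lower late in neurons were led by IGFBP3-TNS3, with 3.85, 2.42, 1.18 and 0.729 kb early and 0, 0.866, 0 and 0 kb late (-1.81 ± 0.30, adjusted p = 0.00314). LOC124901178-CDH6, beside the cadherin gene CDH6, went from 20.1, 11.1, 8.26 and 6.13 kb to 4.40, 6.35, 2.80 and 3.52 kb (-1.24 ± 0.25, adjusted p = 0.00843). PTPRU-MATN1 went from 12.3, 17.1, 8.43 and 9.58 kb to 5.06, 7.04, 5.14 and 3.59 kb (-1.10 ± 0.28, adjusted p = 0.0251). With lists cut to equal length, the calls of IGFBP3-TNS3 (adjusted p = 0.722), LOC124901178-CDH6 (0.566) and MAGEB5-PPP4R3C (0.116) were lost. That of PTPRU-MATN1 was lost without any 1 of 4 neuron libraries, day 40 replicate 2, day 60 replicate 2, day 90 replicate 1 or day 120 replicate 2 (adjusted p between 0.0702 and 0.0955).

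In progenitors the rule also named 3 deserts given here. Higher late was NAALADL2-TBL1XR1, with 1.72, 2.26, 1.97 and 1.27 kb early and 2.33, 2.43, 7.01 and 4.86 kb late (0.91 ± 0.23, adjusted p = 0.0326). Lower late were TRHDE-ATXN7L3B, with 15.2, 15.4, 6.56 and 6.99 kb early and 6.38, 6.36, 4.91 and 1.34 kb late (-1.20 ± 0.28, adjusted p = 0.0234), and CA10-KIF2B (-0.91 ± 0.22, adjusted p = 0.0254). Each of these 3 calls was lost without any 1 of 6 or 7 of the 8 progenitor libraries. The adjusted p was then between 0.0622 and 0.12 for NAALADL2-TBL1XR1, 0.0603 and 0.0813 for TRHDE-ATXN7L3B and 0.0553 and 0.105 for CA10-KIF2B.

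The change with age differed between the populations in 4 deserts (1.34%, against 2.47% of all intervals). SPDYE21-AUTS2 rose in progenitors, from 21.4 to 35.1 kb early to 39.5 to 56.3 kb late, with no change past the threshold in neurons (0.60 ± 0.11 and -0.09 ± 0.11, difference 0.69 ± 0.16, adjusted p = 0.0407). CDH11-CDH5, beside the cadherin gene CDH11, rose in progenitors from 2.66 to 4.09 kb to 5.37 to 7.06 kb (0.83 ± 0.14) and stood at -0.34 ± 0.14 in neurons (difference 1.18 ± 0.20, adjusted p = 0.0217). The last desert of chromosome 11, beyond B3GAT1, a gene of the HNK-1 sugar epitope, fell in neurons from 8.34 to 11.95 kb to 2.73 to 7.48 kb (-0.90 ± 0.16) and stood at 0.19 ± 0.16 in progenitors (difference 1.09 ± 0.23, adjusted p = 0.0287). IGFBP3-TNS3 fell in neurons, as above, and stood at 0.82 ± 0.30 in progenitors (difference 2.63 ± 0.42, adjusted p = 0.0202).

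Regions that were switched between stages were counted by presence. In neurons 392 desert regions (2.09%, against 1.24% of all regions) had a peak in all 4 late and no early library, and 40 (0.213%, against 0.267%) the reverse. In progenitors the counts were 127 (0.677%, against 0.532%) and 85 (0.453%, against 0.493%). Late neuron lists covered 69.7 Mb on average and early ones 85.1 Mb, so the late lists were the shorter ones. Cut to equal length, the lists gave 200 (2.86%, against 1.91%) and 6 (0.0859%, against 0.341%) in neurons. The strongest late neuron regions were chr15:95149738-95150359, 665.79 kb from MCTP2 in MCTP2-NR2F2 (median deposited fold 9.17), chr4:132310977-132311452, 837.84 kb from the protocadherin gene PCDH10 (7.83), and chr4:136465566-136466285 in PABPC4L-PCDH18 (7.72), none with a peak in a progenitor library. The strongest early neuron region by the same measure, chr4:96636990-96638666 in PDHA2-STPG2, was also open in 7 progenitor libraries.

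In progenitors the strongest regions of this kind were chosen by the same measure. Among the late ones, chr11:81325298-81326020 in TENM4-FAM181B was in 0 neuron libraries, chr4:178823571-178824332 in AGA-TENM3 in 5 and chr3:162678609-162679578 in OTOL1-SI in 4. Among the early ones, chr13:81883257-81883842 in SPRY2-SLITRK1 and chr5:28413767-28414321 in CDH9-LOC124901178 were in 0 and chr5:26248973-26249703 in CDH10-CDH9 in 2.

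Presence was also counted at single ages. Desert regions called in the 2 progenitor libraries of an age but in none of its neuron libraries made up 6.87%, 9.19%, 8.05% and 5.05% of desert regions at days 40, 60, 90 and 120, against 6.05%, 9.92%, 8.56% and 4.6% of all regions. The reverse made up 13.2%, 6.35%, 6.98% and 8.95%, against 10.7%, 4.99%, 5.31% and 6.58%. These orders depend on the length of the lists, and with lists of equal length those of days 40, 60 and 90 turned. At day 40 neuron lists covered 101 Mb and progenitor lists 80.3 Mb, and with equal length the neuron share was 4.95% (against 5.8%), below the progenitor share of 8.46% (against 7.8%). With equal length the progenitor share was 7.57% (against 8.87%) and the neuron share 12.4% (against 10.9%) at day 60, and they were 5.54% (against 6.13%) and 9.56% (against 8%) at day 90. At day 120 neuron lists covered 59.3 Mb and progenitor lists 61 Mb on average, but the 2 progenitor lists covered 85.15 and 36.88 Mb. A region had to be in both, so the shorter list bounds the uncut progenitor share. With equal length the neuron share at day 120 was 14.8% (against 10.9%) and the progenitor share 9.22% (against 9.39%).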

How the data were processed

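ATAC-seq of sorted organoid cells was deposited as 1 broad peak list per library. The tools included, per the submitters' processing notes, MACS2 2.1.2, Trim Galore 0.5.0, SAMtools 1.9, Picard and BWA 0.7.17, and the build was hg38. Their settings, filters and read counts were not stated in the labels, so depth is unknown and a peak missing from a list may reflect depth. The authors' deposited columns used were the fold enrichment (a ratio) and the −log10 q; the deposited −log10 p and score columns set no result.

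Peaks outside chromosomes 1 to 22 and X were left out (95 to 387 per library). Genes came from RefSeq (GRCh38.p14); its table also places some genes of alternate sequences on chromosomes, and these bound deserts too. Fisher's exact test (scipy 1.17.1) was run on regions present in 2 to 14 libraries and limma 3.58.1 (R 4.3.3) on intervals, with 8 group means, with Benjamini-Hochberg adjustment over all features and a threshold of 0.05. Intervals needed 500 covered bases or more in 2 or more libraries, and the pseudocount was 500 bases. Scripts were tested on simulated data. The members and gene lists were chosen with earlier results of these data known. Named were the 8 deserts with most regions, the 6 largest population differences each way with 1 sign at all 4 ages, the 3 largest late changes each way per population, the regions with the highest mean fold percentile by pattern, and the deserts with most called regions. Contrasts at single ages were added after the data were seen. Replicate numbers were not treated as pairs in the main results. Correlations of deviations between same-numbered libraries were -0.0979, 0.15, 0.0391 and 0.0334 at days 40, 60, 90 and 120. With 2 libraries per group these values cannot show whether same-numbered libraries share a source. Some deserts that the rule chose are not reported here.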

Additional observations from a re-analysis of the deposited data

Results flagged for a closer look

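In 7 of 56 sets of 4 or 8 libraries 1 library lay far from the others. The rule's rate of about 1 in 20 sets would give 2.8, but it holds for normally spread values. Covered bases cannot fall below 0, and most sets came from deserts named for large differences. Whether 7 is more than chance gives was therefore not tested. In scaled open bases, COBL-POM121L12 had 16.74 kb in progenitor day 40 replicate 1 (next 11.91 kb), and GRIN3A-CYLC2 had 1.405 kb in progenitor day 40 replicate 2 (next 0.5329 kb). ALG10-ALG10B had 3.86 kb in progenitor day 120 replicate 2 (next 1.498 kb) and 0.6982 kb in neuron day 60 replicate 2 (next 0.2013 kb). KLF6-AKR1E2 had 0.8706 kb in progenitor day 120 replicate 1 (next 0.3858 kb). Among late neurons IGFBP3-TNS3 had 0.8655 kb in day 90 replicate 2 and 0 kb in the other libraries, and among early neurons MAGEB5-PPP4R3C had 0.4161 kb in day 40 replicate 1 and 0 kb in the others.

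The late minus early change differed between progenitors and neurons by the interaction term of limma in 4 deserts, by 0.69 on the log2 scale in SPDYE21-AUTS2 (adjusted p = 0.0407), 1.18 in CDH11-CDH5 (0.02175), 1.09 beyond B3GAT1 (0.0287) and 2.63 in IGFBP3-TNS3 (0.0202).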

How the results depend on the processing

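The likeness of libraries within a population kept its direction and its p under every alternative run, from 0.1345 (without progenitor day 60 replicate 1) to 0.1797 (lists of equal length). The share of peaks passed with −log10 q of at least 2 (-0.5514, exact p = 0.0357) and with a stage block (-0.3784, exact p = 0.0309). The late change of the base share in neurons was 0.9415 with equal lists (unadjusted exact p = 0.0286) and ranged from 0.197 to 0.694 with a library left out. Regions called in progenitors and neurons numbered 171 and 73 with equal lists, 772 and 332 at 250 kb from genes, 83 and 39 at 1 Mb, 43 and 12 where peaks had to cover 50% of a region, 122 and 31 with all regions tested and 0 and 0 in the stage block; with a library left out they ranged from 349 to 518 and from 159 to 298. Deserts higher in progenitors and neurons numbered 144 and 145 at 250 kb, 11 and 27 at 1 Mb and 34 and 32 without scaling. Deserts changed with age in progenitors and neurons numbered 53 and 72 with equal lists, 88 and 129 at 250 kb, 6 and 11 at 1 Mb, 1 and 10 without scaling, 38 in progenitors with −log10 q of at least 2, and 7 to 40 and 18 to 63 with a library left out. Other distances and lists hold other numbers of regions; otherwise the cause was not tested. With the replicate block, 344, 159, 54, 77, 23 and 42 features were called in the same order each within 2 of the counts without it, and the share of peaks had an exact p of 0.175. Letting genes with a LOC symbol not bound deserts, chosen after seeing the data, gave 368, 160, 56, 77, 26 and 42. All 12 named population differences of deserts kept their call under every alternative in which single deserts were examined. Single deserts were not examined at 250 kb, at 1 Mb or with LOC genes not bounding deserts. ALG10-ALG10B was also absent where intervals that hold a centromere were left out. All 12 named regions lost their call in the stage block and 7 with 50% cover. The balance of higher and lower deserts turned with scaling, and that of presence at days 40, 60 and 90 with equal lists, as given above. The number of libraries and the unknown depth limit all counts of absent peaks.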
